A study of Mus musculus with 17 samples.

Results

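The comparison of monocytic with granulocytic myeloid cells of tumour-free mice was made between 7 of the 17 arrays of the series. The arrays were chosen by their labels, 3 of the monocytic subset and 4 of the granulocytic subset from naive mice. The cells were CD11b+ splenocytes of female BALB/c mice, enriched on magnetic beads and then sorted by flow cytometry. The gate for the monocytic subset (called Mo here) took cells with much Ly-6C and little Ly-6G on their surface, and that for the granulocytic or polymorphonuclear subset (called PMN here) took the reverse. The naive mice received no tumour cells, although the labels give both subsets the name of myeloid-derived suppressor cells (MDSC) at every stage. The other 10 arrays came from mice that carried a subcutaneous Her-2/CT26 tumour, 3 or 6 weeks after its injection. They held 3 Mo and 2 PMN arrays at each time. All 17 arrays share the normalization and the estimate of spread, so these 10 also bear on the naive levels, SEs and p-values. Their own values are given only where the naive differences are followed over time. Spleens were pooled, and the sources used here do not say how many mice went into a pool or whether each replicate had a pool of its own. P-values therefore reflect only how far these arrays vary, and that variation may be technical.

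Monocytes and neutrophils arise in the marrow from a shared progenitor and circulate between marrow, blood and spleen. Ly-6C-high monocytes leave the marrow through the chemokine receptor Ccr2, carry receptors for immune complexes, nucleic acids and lipids, and can become macrophages or dendritic cells. Neutrophils are short-lived, are held in or released from the marrow through Cxcr4 and Cxcr2, and pack their antimicrobial proteins into granules made one after another during maturation: azurophil granules first (myeloperoxidase, elastase), then specific granules (lactoferrin, lipocalin), then gelatinase granules (Mmp9). In the mouse Ly-6G is a surface protein of neutrophils, so the gate itself selects for it.

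Each array measured 35557 features of the Affymetrix Mouse Gene 1.0 ST design, which were reduced to 19938 genes. The deposited intensities of the Mo arrays had upper quartiles from 254 to 298 and those of the PMN arrays from 183 to 202, so the arrays were put on 1 distribution before subsets were compared. Any statement on which subset is higher rests on that step. All levels below are log2 intensities after it, and all differences are log2 levels of Mo minus PMN, so that a positive value means higher in Mo. Levels of different genes were not compared with each other, since each feature has its own response. The 1194 olfactory and vomeronasal receptor genes were taken as a rough guide to background, although 1 of them was called by the rule given below. Their levels had a median of 5.32 in naive Mo and 5.37 in naive PMN. A fold against a level of that size depends on the background of the array. On the PMN side this holds for genes with Mo levels under 6, such as Cxcr2, Ptgs2, Il1f9, Cxcl2, Retnlg and Il1r2. On the Mo side it holds for Msr1, Ifi205, Ifi202b and Met, with PMN levels under 6. The 95th percentile of the receptor genes was 6.91 in naive Mo and 7.45 in naive PMN. The PMN means of Fn1 (6.71), Ccr2 (6.27), F13a1 (6.54), Ms4a6c (6.65) and Ms4a4a (7.26) also lay under it. The Mo means of S100a9 (6.77) and Mmp9 (6.37) did so too. The folds of these genes therefore also depend on the background.

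Over all genes the arrays of 1 naive group correlated at r = 0.983 or more with each other, and arrays of different groups at 0.893 or less. At any fold, 12073 genes (60.6%) had an adjusted p below 0.05 in limma, so only large differences are described. A gene was called where the adjusted p was below 0.05, the difference was at least 4-fold (2 on the log2 scale) and the 3 Mo and 4 PMN values did not overlap. By this rule 360 genes (1.81% of those tested) differed, 230 higher in Mo (1.15%) and 130 higher in PMN (0.652%). Counts of calls in the gene lists and families below are to be read beside these shares of all genes. A list with 1 call lies too near them to say anything about the list. Every gene that was 4-fold apart met the other conditions, with adjusted p of at most 1.18e-05. The median SE of the called differences was 0.135, and the narrowest gap between the groups of a called gene was 0.87. The count of genes at least 8-fold apart was 52 in Mo and 41 in PMN, and at least 32-fold apart 5 in Mo and 12 in PMN. The Mo side thus held more of the calls, and the PMN side more of those beyond 32-fold. The split depended on the scaling: it was 491 higher in Mo and 55 in PMN on the values as deposited, and 297 and 81 with each array centred on its median. The median difference of all genes was -0.05 after joint normalization and 0.20 on the deposited values.

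**Figure D1:**
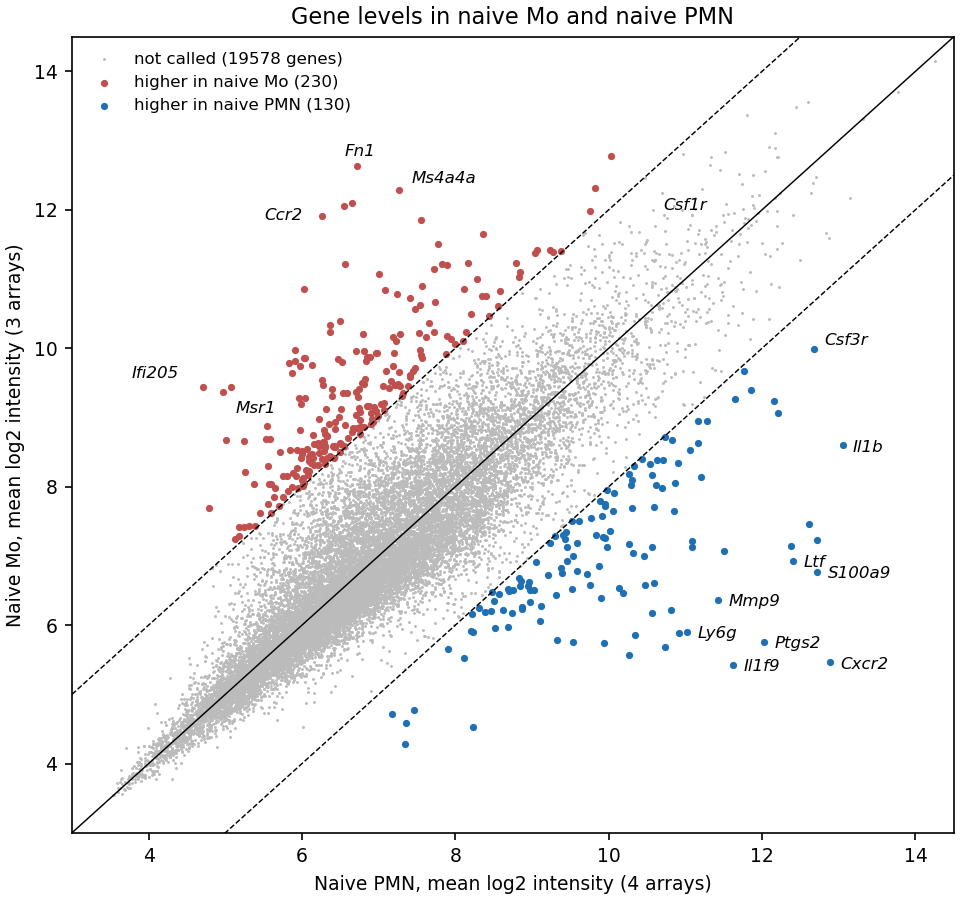
Mean log2 intensity of 19938 genes in naive PMN (horizontal axis, 4 arrays) against naive Mo (vertical axis, 3 arrays); the solid line marks equal levels and the dashed lines a 4-fold difference. The 230 genes called higher in Mo lie above the upper dashed line and the 130 called higher in PMN below the lower one, with Cxcr2 and Ptgs2 farthest out among the latter.

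The genes of the gating proteins and the lineage receptors were examined first. Ly6g read 5.77, 5.87 and 6.07 in Mo and 10.92, 11.59, 10.80 and 10.79 in PMN. The groups lay 34.8-fold apart, which the gate on Ly-6G protein had selected for, and replicate 2 of PMN stood above the other 3. Ly6c1 and Ly6c2 were measured only by features assigned to several genes and are not given. Itgam, which encodes the CD11b by which both subsets were enriched, read 10.88, 10.93 and 10.96 in Mo and 11.61, 11.48, 11.20 and 11.49 in PMN, a difference of -0.52 ± 0.10 (SE), under the 4-fold threshold, and 0.23 on the deposited values. Ccr2, the receptor through which monocytes follow Ccl2, read 11.80, 11.94 and 11.98 in Mo and 6.22, 6.48, 6.19 and 6.17 in PMN. Its difference of 5.64 ± 0.12 (SE), or 49.8-fold, had a limma adjusted p of 8.5e-16. Cxcr2, the neutrophil receptor for chemokines such as Cxcl1 and Cxcl2, read 5.57, 5.42 and 5.40 in Mo and 12.90, 12.97, 12.87 and 12.78 in PMN. At -7.41 ± 0.21 (SE), a 170-fold difference with a limma adjusted p of 3.8e-14, Cxcr2 was the farthest apart of all 19938 genes. Its Mo values lay near the median of the olfactory and vomeronasal receptor genes in Mo (5.32), so the fold depends on the background. Csf1r, the receptor for the monocyte and macrophage growth factor Csf1, was a weaker marker, at 11.70, 11.79 and 11.81 in Mo and 10.58, 10.98, 10.16 and 10.67 in PMN. The 2.24-fold difference in Csf1r did not reach the threshold for a call, although the groups did not overlap. Csf3r, the receptor for granulocyte colony-stimulating factor, read 9.90, 9.97 and 10.08 in Mo and 12.68, 12.71, 12.71 and 12.60 in PMN and was 6.46-fold higher in PMN. Of the labelled identities, Ccr2, Ly6g, Cxcr2 and Csf3r lay on the side the gate implies by more than 4-fold, and Csf1r by less.

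The promoters of the genes farthest apart were searched for short sequences bound by myeloid transcription factors, because genes of several of these factors were among those called. The motifs were TTGCNNAA for C/EBP factors, GAGGAAG for PU.1, GAAANNGAA for interferon regulatory factors (IRF), TGANTCA for AP-1 and GGGTGTGG for KLF factors, on both strands of the 250 bases before each start site in the RefSeq promoter table (GRCm38.p6). Copies of different motifs overlapped once in the windows of called genes. Of the 12 genes farthest apart on the PMN side, 11 had a window and 8 of these held a C/EBP motif, while 0 held an IRF motif. Of the 12 on the Mo side, 9 had a window, 5 of these held an IRF motif and 0 held a C/EBP motif. The stretches of 60 bases below show these copies in capitals, 5′ to 3′ on the strand of the gene, for the genes higher in PMN first. They are shown because the C/EBP motif was the one that most of these PMN genes shared. Ptgs2 lies on the + strand at chr1:150099936-150099995, S100a9 on the - strand at chr3:90695912-90695971, Ltf on the + strand at chr9:111019191-111019250 and Ngp on the + strand at chr9:110419748-110419807. Lcn2 lies on the - strand at chr2:32387922-32387981, Ly6g on the + strand at chr15:75155011-75155070, Retnlg on the + strand at chr16:48872358-48872417 and Steap4 on the + strand at chr5:7960359-7960418.
Ptgs2: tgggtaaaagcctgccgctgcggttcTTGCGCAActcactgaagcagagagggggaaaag
S100a9: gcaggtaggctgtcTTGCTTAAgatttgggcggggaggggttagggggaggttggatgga
Ltf: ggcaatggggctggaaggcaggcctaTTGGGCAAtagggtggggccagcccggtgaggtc
Ngp: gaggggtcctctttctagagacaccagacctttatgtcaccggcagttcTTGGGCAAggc
Lcn2: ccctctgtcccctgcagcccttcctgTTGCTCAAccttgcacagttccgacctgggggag
Ly6g: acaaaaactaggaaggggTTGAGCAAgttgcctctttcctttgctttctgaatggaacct
Retnlg: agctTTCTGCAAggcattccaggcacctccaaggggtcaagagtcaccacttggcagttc
Steap4: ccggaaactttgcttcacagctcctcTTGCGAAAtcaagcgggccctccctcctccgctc

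The IRF copies of the Mo genes are shown the same way. Ccr2 lies on the + strand at chr9:124102071-124102130, Ms4a6c on the + strand at chr19:11469209-11469268, Ifi205 on the - strand at chr1:174031856-174031915, Ifi44l on the - strand at chr3:151762892-151762951 and Ms4a6b on the + strand at chr19:11518327-11518386. Ms4a6c and Ms4a6b hold the same letters.
Ccr2: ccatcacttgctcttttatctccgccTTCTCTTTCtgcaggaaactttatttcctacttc
Ms4a6c: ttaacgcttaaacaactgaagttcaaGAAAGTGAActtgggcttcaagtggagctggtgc
Ifi205: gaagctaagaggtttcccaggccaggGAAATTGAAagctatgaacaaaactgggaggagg
Ifi44l: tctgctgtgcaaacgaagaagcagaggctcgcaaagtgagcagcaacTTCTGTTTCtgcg
Ms4a6b: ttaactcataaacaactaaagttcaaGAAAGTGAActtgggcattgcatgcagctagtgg

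Over all called genes the contrast was smaller. Windows were found for 107 of the 130 genes called higher in PMN, for 189 of the 230 called higher in Mo and for 15562 of the 19938 genes tested, with more than 1 window for some genes. The C/EBP motif was in 17.4% of the 132 PMN windows, in 8.97% of the 234 Mo windows and in 8.67% of the 19115 windows of all genes tested. The IRF motif was in 6.82% of PMN windows, 11.1% of Mo windows and 6.79% of all. The PU.1 motif was in 18.2%, 12.8% and 10.5%, the AP-1 motif in 6.82%, 6.41% and 6.03%, and the KLF motif in 3.79%, 5.13% and 3.42%. These shares describe letters in the reference sequence and do not show that a factor was bound.

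The genes farthest apart on the Mo side encoded matrix, coagulation and membrane proteins of monocytes. Fn1, the matrix protein fibronectin, read 12.49, 12.78 and 12.62 in Mo and 6.79, 6.73, 6.51 and 6.82 in PMN. The 60.4-fold difference of Fn1 (5.92 ± 0.11, SE) was the largest on the Mo side, and its limma adjusted p was 1.3e-16. F13a1, the A subunit of coagulation factor XIII, read 11.91, 12.14 and 12.09 in Mo and 6.60, 6.65, 6.47 and 6.46 in PMN, 45.3-fold higher in Mo. Msr1, the class A scavenger receptor that takes up modified lipoproteins, read 9.47, 9.20 and 9.43 in Mo and 4.99, 4.86, 5.05 and 4.96 in PMN, 21.1-fold higher. The gap between the lowest Mo and the highest PMN array was 5.67 in Fn1, 5.26 in F13a1 and 4.14 in Msr1, so the groups were far from overlapping. With levels floored at 6 the difference of Msr1 was 3.36.

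The Ms4a genes encode membrane proteins with 4 spans that lie in 1 cluster and include the B cell antigen CD20. The family was chosen after its values were seen, and its counts are a description. Of 19 measured members, 6 were called higher in Mo and 1, Ms4a1 (CD20 itself), higher in PMN, while the median difference of the family was 0.01. Over all genes 1.15% were called higher in Mo and 0.652% in PMN. Ms4a6c read 12.08, 12.06 and 12.18 in Mo and 6.76, 7.26, 6.12 and 6.45 in PMN, 43.9-fold higher in Mo. Ms4a4a read 12.27, 12.20 and 12.40 in Mo and 7.42, 7.26, 7.13 and 7.23 in PMN, 32.7-fold higher. The PMN arrays spread more in Ms4a6c than in Ms4a4a, and the gap between the groups was 4.79 in both. Ms4a6d, Ms4a4c, Ms4a6b and Ms4a8a followed at differences of 4.83, 4.29, 4.07 and 2.62. Some members of the cluster are close copies of each other, and the signal of 1 feature may include a neighbour.

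Several genes of the interferon-inducible p200 family sense cytosolic DNA. This family too was chosen after its values were seen. Of 10 measured members, 4 were called higher in Mo and 0 in PMN, against 1.15% and 0.652% of all genes. Ifi206 (-0.20), Ifi213 (0.20) and Ifi208 (0.23) had differences near 0. Ifi205 read 9.46, 9.10 and 9.78 in Mo and 4.56, 4.85, 4.57 and 4.84 in PMN, 26.8-fold higher in Mo. Ifi202b read 9.42, 9.25 and 9.65 in Mo and 4.85, 5.48, 5.08 and 4.91 in PMN, 20.5-fold higher. Ifi207 and Ifi209 differed by 3.95 and 3.77, and the inflammasome sensor Aim2 by 1.97, just under the threshold. The lowest Mo array of Ifi205 lay 4.25 above the highest PMN array. With levels floored at a log2 intensity of 6 the differences were 3.45 for Ifi205 and 3.44 for Ifi202b. Among the 33 measured interferon-stimulated genes of a broader list, 5 were called higher in Mo and 0 in PMN, with a median difference of 1.00 against -0.05 over all genes, and 9 and 0 on the deposited values. The 5 were Ifi44l, Ifitm3, Eif2ak2, Zbp1 and Mx1. Ifi44l read 11.11, 11.05 and 11.50 in Mo and 6.39, 7.04, 6.28 and 6.52 in PMN, 25.3-fold higher. Other members did not follow, with Rsad2 at -1.18, Oasl1 at -0.73 and Ifit1 at -0.35.

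Several sensors of nucleic acids and of bacterial proteins were called higher in Mo. Of 19 measured Toll-like receptors and partners, 3 were called higher in Mo (Tlr7, Tlr8 and Ly86, the partner of Cd180) and 0 in PMN (median 0.75). Tlr7, an endosomal receptor for single-stranded RNA, read 9.91, 9.91 and 10.08 in Mo and 6.59, 7.21, 6.59 and 6.43 in PMN, 9.58-fold higher. Tlr8 read 9.02, 9.13 and 9.23 in Mo and 6.46, 6.39, 6.25 and 6.18 in PMN, 7-fold higher. The surface receptors for bacterial lipids were not called, with Tlr4 at -0.85, Tlr2 at -0.40 and their partner Cd14 at -0.07. Cd14, often used as a monocyte marker, read 8.30, 8.01 and 7.60 in Mo and 8.10, 8.24, 8.16 and 7.64 in PMN, with overlapping groups and a 95% confidence interval of the difference from -0.43 to 0.30, and the sign of its difference turned on the deposited values (0.47). Naip2, Naip5 and Naip6, which bind bacterial proteins and activate the Nlrc4 inflammasome, were neighbours in the genome and all called higher in Mo, by 2.25, 3.33 and 2.66. They are related genes, and their features may share transcripts. Nlrc4 itself differed by 1.56, and the protease Casp1 by 2.16.

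Of 33 measured Fc receptors, C-type lectins and paired receptors, 4 were called higher in Mo and 6 in PMN, and 4 and 3 on the deposited values. On the Mo side were the immune complex receptors Fcgr1 (2.94) and Fcgr2b (3.28) and the lectins Clec4a3 (3.41) and Clec4a1 (3.33). Fcgr1, the high-affinity IgG receptor CD64, read 9.91, 9.77 and 10.09 in Mo and 6.77, 7.10, 6.80 and 7.25 in PMN, 7.70-fold higher in Mo. On the PMN side were Trem1, Clec4d, Cd300lf, Siglece, Trem3 and Clec4e. Trem1, which amplifies inflammatory signals through Tyrobp, read 6.15, 6.33 and 6.18 in Mo and 10.98, 11, 10.54 and 10.71 in PMN, 23.9-fold higher in PMN. The shared signalling adaptors were not called, with Tyrobp at 0.01 and Fcer1g at 1.12.

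Of 31 measured cathepsins and lysosomal proteins, 4 were called higher in Mo and 0 in PMN, with a median of 0.77, and 8 and 0 on the deposited values. Ctsc, the peptidase that activates granule serine proteases, read 11.58, 11.62 and 11.74 in Mo and 8.12, 9.08, 7.83 and 8.43 in PMN, 9.74-fold higher. Ctss, which cleaves the invariant chain of MHC class II, read 12.26, 12.25 and 12.41 in Mo and 9.65, 10.43, 9.61 and 9.59 in PMN, 5.60-fold higher. Npc2 (2.35) and Cd68 (2.12) were the other 2, while Ctsd at -1.43 and Cd63 at -1.59 lay on the PMN side without a call. Replicate 2 of PMN was the highest PMN array in both Ctsc and Ctss. Of 14 measured genes of MHC class II presentation, H2-DMa (5.02-fold) and Ctss were called higher in Mo, whereas the class II chains themselves were close, with H2-Aa at -0.06, H2-Ab1 at 0.35 and Cd74 at -0.18. The level of class II genes can include B cells, whose markers are given below.

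In the list of 24 measured monocyte genes 15 were called higher in Mo, which compares with 1.15% of all genes, and 0 in PMN, with a median of 2.44. The list was chosen by lineage with earlier results of these data known, so its count is only a description. Those that missed the call included Irf8 (1.33), Lgals3 (1.68), Cybb (0.93), Cd14 and Treml4 (-0.06). Among S100 proteins and annexins, 4 of 20 were called higher in Mo and 2 in PMN. The 4 were Anxa5, S100a10, Anxa4 and S100a4, and Anxa5, which binds exposed phosphatidylserine, read 11.42, 11.54 and 11.56 in Mo and 7.56, 8.32, 7.59 and 7.63 in PMN, 13.3-fold higher in Mo. The 2 on the PMN side were S100a8 and S100a9.

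Genes for protein synthesis, protein breakdown and respiration had positive list medians and few calls. The median difference was 0.92 over 23 ribosomal proteins (0 called), 0.96 over 29 respiratory chain subunits (1 called) and 1.02 over 25 proteasome subunits (1 called), against -0.05 over all genes. All 29 respiratory chain subunits had positive differences, from 0.12 to 2.02 (Ndufb5). The translation factors Eif3e and Eif3h were called, 7.93-fold and 5.05-fold higher in Mo. The medians moved with the scaling but kept their sign: on the deposited values they were 1.72 for ribosomal proteins, 1.42 for respiratory chain subunits and 1.48 for proteasome subunits. The counts called higher in Mo were then 7, 4 and 5, and with centred arrays 5, 0 and 1. Cell division genes had medians of 0.11 over 25 mitosis genes and 0.27 over 26 DNA replication genes, and Mki67 at -0.04. Kif23, a mitotic kinesin, was the 1 mitosis gene called, and it was 4.70-fold higher in PMN.

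**Figure D2:**
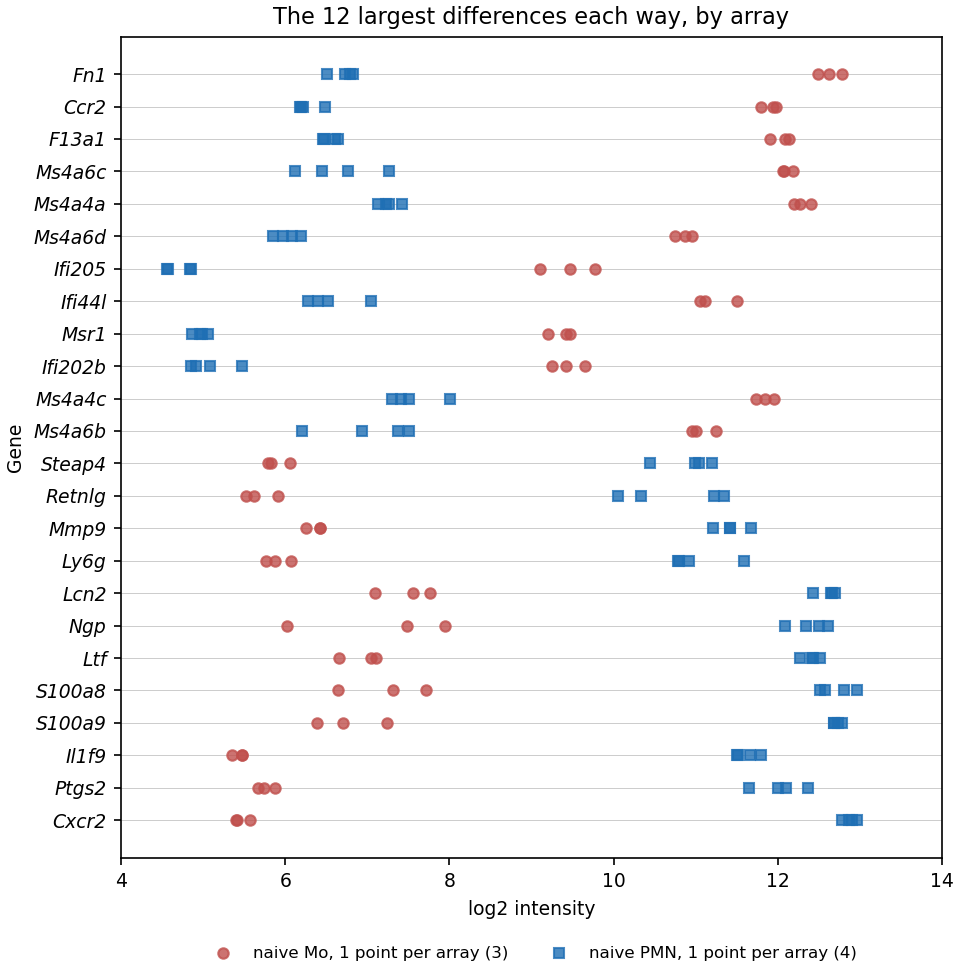
Log2 intensity (horizontal axis) of the 12 genes farthest apart on each side (vertical axis), with 1 point for each of the 3 naive Mo and 4 naive PMN arrays. No gene shown has overlapping groups, and the spread within a group is widest in Ngp, whose Mo arrays run from 6.02 to 7.95.

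The PMN side was led by inflammatory mediators and granule proteins of neutrophils. Ptgs2, the inducible cyclooxygenase that makes prostaglandin precursors, read 5.88, 5.66 and 5.74 in Mo and 12.10, 12.37, 11.65 and 12 in PMN. The 77.3-fold difference of Ptgs2 (-6.27 ± 0.14, SE, limma adjusted p 1.2e-15) was the next largest after that of Cxcr2. Il1f9, which encodes the cytokine IL-36 gamma, read 5.47, 5.35 and 5.47 in Mo and 11.80, 11.66, 11.51 and 11.50 in PMN, 72.8-fold higher in PMN. Il1b read 8.73, 8.45 and 8.61 in Mo and 13.28, 13.04, 12.97 and 12.90 in PMN, 21.9-fold higher in PMN. The groups lay at least 4.17 apart at their nearest arrays in all 3 genes. In the list of 21 measured interleukin-1 family and inflammasome genes 4 were called higher in PMN (Il1f9, Il1b, the decoy receptor Il1r2 and the sensor Nlrp3) and 3 in Mo (Naip5, Naip2 and Casp1). The list median was -0.03. On the deposited values 3 were called in PMN and 4 in Mo with a median of 0.64, and with centred arrays 3 and 3 with a median of 0.38.

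S100a8 and S100a9, which form the abundant cytosolic complex calprotectin, were 45-fold and 61.6-fold higher in PMN. S100a8 read 6.65, 7.32 and 7.72 in Mo and 12.57, 12.97, 12.81 and 12.52 in PMN. S100a9 read 6.38, 6.70 and 7.23 in Mo and 12.78, 12.68, 12.73 and 12.68 in PMN. The Mo arrays spread more than the PMN arrays in both genes, with replicate 1 lowest.

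Of 25 measured specific and gelatinase granule genes, 9 were called higher in PMN and 0 in Mo, which compares with 0.652% of all genes. This list too was chosen with earlier results of these data known, so its counts are only a description. The counts on the deposited values were 6 in PMN and 2 in Mo, and with centred arrays 7 and 1. Ltf, the iron-binding lactoferrin, read 6.65, 7.11 and 7.04 in Mo and 12.43, 12.52, 12.27 and 12.42 in PMN, 44.5-fold higher. Lcn2, which binds bacterial siderophores, read 7.09, 7.55 and 7.76 in Mo and 12.66, 12.70, 12.43 and 12.65 in PMN, 35.3-fold higher. Ngp, a cathelin-related granule protein, read 6.02, 7.48 and 7.95 in Mo and 12.50, 12.09, 12.34 and 12.61 in PMN, 37.7-fold higher. Mo replicate 1 was the lowest Mo array in all 3 genes, by most in Ngp. Mmp9, the gelatinase, read 6.42, 6.43 and 6.25 in Mo and 11.68, 11.42, 11.21 and 11.42 in PMN, 33.5-fold higher. Camp, the cathelicidin precursor, was 11.1-fold higher, and Olfm4, Adam8, Pglyrp1 and Mmp8 differed by -3.78, -2.69, -2.10 and -2.02. Lyz2, the lysozyme of both lineages, lay on the Mo side at 1.57.

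The azurophil granule genes, which neutrophils make at the promyelocyte stage, gave another picture. Of 11 measured, 0 were called in either direction (1 in Mo on the deposited values), and their differences ran from -1.99 to 1.26 with a median of 0.13. Mpo, myeloperoxidase, read 6, 6.16 and 6.61 in Mo and 6.07, 5.78, 5.90 and 6.01 in PMN, with overlapping groups. All these values lay under the 95th percentile of the olfactory and vomeronasal receptor genes (6.91 in Mo, 7.45 in PMN). They therefore do not show that the subsets expressed Mpo equally. Elane, Ctsg and Prtn3 differed by 0.13, 0.32 and 0.94. Of the 16 early granulocyte and progenitor genes, Cebpa (on the Mo side) was the 1 called, and Kit, Myb and Cd34 differed by -0.46, -0.25 and -0.14.

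Of 23 measured mature neutrophil genes, 19 were called higher in PMN and 0 in Mo, with a median of -2.69. This list too was chosen by lineage with earlier results of these data known. The deposited values gave 12 calls in PMN and 0 in Mo, with a median of -2.12. Retnlg, a resistin-like secreted protein, read 5.52, 5.91 and 5.62 in Mo and 10.33, 11.34, 11.22 and 10.05 in PMN, 33.2-fold higher, and PMN replicates 2 and 3 lay above replicates 1 and 4. Hdc, which makes histamine, read 6.91, 7.32 and 7.15 in Mo and 11.34, 11.07, 10.94 and 10.96 in PMN, 15.5-fold higher. Cd177, a marker of some neutrophils, was not called, at -0.30. Steap4, a metalloreductase, read 5.83, 6.06 and 5.79 in Mo and 11.04, 11.20, 10.99 and 10.44 in PMN, 32.5-fold higher, and Slc2a3, the glucose transporter GLUT3, read 6.52, 6.65 and 6.64 in Mo and 10.71, 10.57, 10.56 and 10.53 in PMN, 15.9-fold higher. Slc2a3 was the 1 gene called of 25 measured for glycolysis and glycogen, whose median was -0.10.

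Chemokine genes separated the subsets at both ends. Of 23 measured chemoattractant receptors, 5 were called higher in PMN (Cxcr2, Ccr1, P2ry13, C5ar1 and Ccr3) and 2 in Mo (Ccr2 and Cx3cr1). The deposited values gave 2 calls in PMN and 2 in Mo. Ccr1 read 5.61, 5.68 and 6.29 in Mo and 10.48, 10.18, 10.31 and 10.37 in PMN, 22.3-fold higher in PMN, with Mo replicate 3 above the other Mo arrays. Cx3cr1, the fractalkine receptor, read 10.68, 10.79 and 10.79 in Mo and 8.46, 8.42, 8.28 and 8.23 in PMN, 5.29-fold higher in Mo. Cxcr4 was close to equal at -0.08. Of 21 measured chemokine ligands, Cxcl2 was called on the PMN side and Ccl9 on the Mo side. Cxcl2, itself a ligand of Cxcr2, read 5.62, 5.64 and 5.47 in Mo and 10.47, 10.59, 9.90 and 10.14 in PMN, 26-fold higher in PMN.

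Among 22 measured genes of eicosanoid synthesis, Ptgs2 and Alox5 (5-lipoxygenase, 7.33-fold) were called higher in PMN and the leukotriene receptor Cysltr1 (4.29-fold) in Mo. Alox5ap, the partner of Alox5, lay on the other side at 1.04. Of 25 measured suppression effectors and checkpoint ligands, 2 were called, both higher in PMN: Ptgs2 and the mitochondrial arginase Arg2. Arg2 read 6.18, 6.21 and 6.44 in Mo and 9.23, 9.08, 9.46 and 8.67 in PMN, 7.14-fold higher. The 95th percentile of the olfactory and vomeronasal receptor genes was 6.91 in Mo and 7.45 in PMN, and all arrays of Arg1 and Nos2 lay under it, so their differences carry little. Arg1 read 6.01, 6.05 and 5.95 in Mo and 5.93, 5.78, 5.66 and 5.76 in PMN, a difference of 0.22 (95% confidence interval 0.03 to 0.41). Nos2, the inducible nitric oxide synthase, read 6.83, 6.85 and 6.61 in Mo and 6.76, 6.81, 7.09 and 6.83 in PMN, a difference of -0.11 (interval -0.34 to 0.12), or 0.19 on the deposited values. Cybb, the catalytic subunit of the NADPH oxidase, was 1.91-fold higher in Mo, and the ligand of PD-1, Cd274, was 1.57-fold higher in PMN, both under the threshold.

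Of 41 measured myeloid transcription factors, 3 were called higher in Mo (Cebpa, Klf4 and Irf5) and 4 in PMN (Egr1, Ets2, Mxd1 and Cebpd), against 5 and 2 on the deposited values. Cebpa, which starts the granulocyte and monocyte programme in progenitors, read 9.70, 9.46 and 9.18 in Mo and 7.06, 7.43, 6.93 and 6.79 in PMN, 5.26-fold higher in Mo. Klf4, a factor of monocyte differentiation, read 8.88, 9.05 and 9.14 in Mo and 6.76, 7.60, 6.74 and 6.88 in PMN, 4.09-fold higher in Mo, close to the threshold, with PMN replicate 2 above the rest. Cebpd, a C/EBP member induced late and by inflammation, read 7.75, 7.63 and 7.59 in Mo and 10, 10.31, 10.07 and 9.88 in PMN, 5.31-fold higher in PMN. Egr1, an immediate early factor, read 6.72, 6.62 and 6.30 in Mo and 10.16, 10.64, 9.40 and 10.36 in PMN, 12.1-fold higher in PMN. Factors used by both lineages differed by less: Spi1, which encodes PU.1, differed by -0.08 (95% confidence interval -0.30 to 0.14) and Cebpb by -0.26 (-0.53 to 0.01). On the deposited values the differences were positive, 0.71 for Spi1 and 0.49 for Cebpb. Gfi1 (-0.53) and Cebpe (-0.95), the factors of granule formation, were not called. All arrays of Gfi1 lay under the 95th percentile of the olfactory and vomeronasal receptor genes (6.91 in Mo, 7.45 in PMN). The difference of Gfi1 therefore carries little.

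Egr1 was also listed among the immediate early genes, which can be induced by handling of cells. Of 18 measured dissociation and immediate early genes, Egr1 was the 1 called, and the list median was -0.83. On the deposited values 3 were called higher in Mo and 1 in PMN with a median of -0.07, and with centred arrays 0 and 1 with a median of -0.32. Egr2, Btg2, Ier3, Junb, Fosb and Fos lay between -1.87 and -1.19, whereas Jun (1.39), Hspa1a (1.90) and Hsph1 (1.88) lay on the Mo side. The part of cell handling in these differences was not tested.

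Of 29 measured growth factor and cytokine receptors, Met (3.41) and the gp130 subunit Il6st (3.02) were called higher in Mo, and Il1r2, Il18rap and Csf3r higher in PMN. Met, the receptor for hepatocyte growth factor, read 8.58, 8.56 and 8.83 in Mo and 5.25, 5.30, 5.24 and 5.21 in PMN, 10.6-fold higher in Mo, or 2.66 on the log2 scale with levels floored at 6. Il1r2 read 5.64, 5.63 and 5.93 in Mo and 9.84, 10.11, 9.71 and 10.11 in PMN, 18.5-fold higher in PMN. The receptors for GM-CSF were not called, with Csf2ra at -0.04 and Csf2rb at -0.46. Of 28 measured adhesion genes, Itga1 (5.31-fold) and Itgb7 (4.66-fold) were called higher in Mo and Cd9 and Vcam1 higher in PMN. This count was 4 and 0 on the deposited values and 3 and 0 with centred arrays. Of 21 measured lipid genes, Msr1, Scarb1 and Lrp1 were called higher in Mo and G0s2, an inhibitor of the triglyceride lipase, higher in PMN (5.79-fold), and on the deposited values 4 were called in Mo and 0 in PMN. Of 18 measured protease inhibitors, Serpinb10 (14.8-fold) and Wfdc17 (6.44-fold) were called higher in Mo, and Stfa2 (6.79-fold) and Wfdc21 (5.79-fold) in PMN. With levels floored at 6 the difference of Stfa2 was -1.36 and its call was lost.

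The remaining lists held few calls. Of 20 complement genes, Cr2, C5ar1 and C1qc were called higher in PMN, but 0 on the deposited values and 0 with centred arrays. Of 14 class I presentation genes the peptidase Erap1 was called higher in Mo (4.16-fold). Of 16 cholesterol synthesis genes, Idi1 was called higher in Mo (4.33-fold), a call lost with levels floored at 6 (1.43). In 11 NADPH oxidase genes and 18 genes of the BCL2 family and caspases, 0 were called, with medians of 0.09 and 0.13, and 0 and 1 on the deposited values. Casp1, called higher in Mo at 2.16, was counted with the inflammasome genes and not here.

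**Figure D3:**
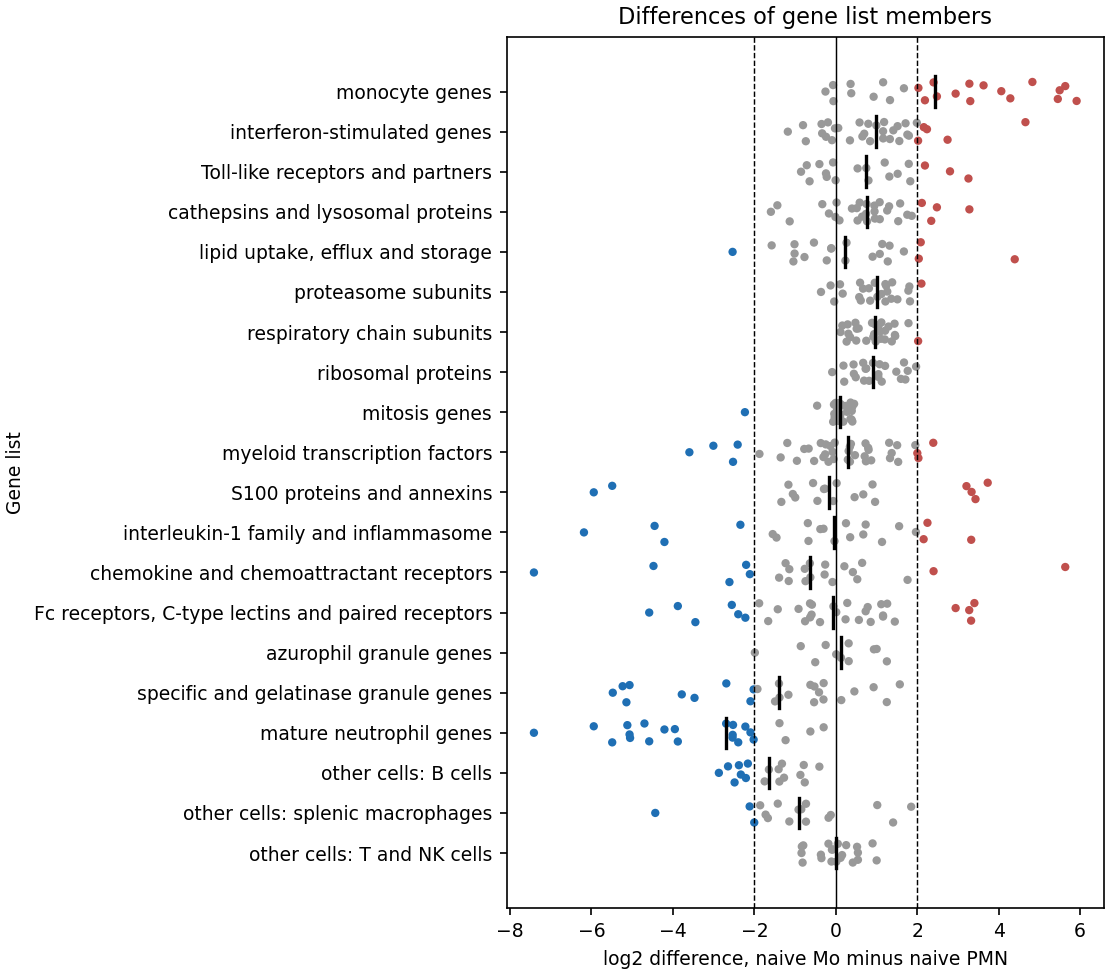
Log2 difference of Mo minus PMN (horizontal axis) for each measured member of 20 gene lists (vertical axis), coloured where the gene was called; short black lines are list medians and dashed lines mark 4-fold. Monocyte genes reach 5.92 and mature neutrophil genes -7.41, while the medians of azurophil granule genes (0.13) and of T and NK cell genes (0.01) lie near 0.

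Markers of other cell types were examined because the sort could carry them. Of 17 measured B cell genes, 7 were called higher in PMN (Bank1, Pax5, Ms4a1, Cr2, Ebf1, Cd79a and Fcer2a) and 0 in Mo, and all 17 differences were negative, with a median of -1.64. Pax5, the factor that defines the B lineage, read 7.14, 6.55 and 6.56 in Mo and 9.43, 9.40, 9.24 and 9.52 in PMN. Bank1, a B cell scaffold protein, read 6.93, 6.08 and 6.30 in Mo and 9.24, 9.65, 9.12 and 9.24 in PMN. Mo replicate 1 was the highest Mo array in both genes and no Mo array reached a PMN array. The summed linear intensity of the 17 genes ran from 7169 to 8637 in PMN and from 2089 to 3267 in Mo, where replicate 1 was the highest. The count called fell to 1 on the deposited values and to 4 with arrays centred on their medians. The part of B cells in the genes called higher in PMN was not tested. In bulk RNA, fewer cells of a type and less RNA per cell cannot be told apart.

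Of 17 measured splenic macrophage genes, 3 were called higher in PMN (Slc40a1, Vcam1 and C1qc) and 0 in Mo, with a median of -0.91. On the deposited values 1 was called in PMN and 2 in Mo with a median of -0.47, and with centred arrays 1 and 1. Slc40a1, the iron exporter ferroportin, read 7.58, 6.74 and 6.89 in Mo and 11.52, 11.71, 11.28 and 11.51 in PMN, with all 4 PMN arrays alike. Vcam1, an adhesion receptor of red pulp macrophages, read 7.93, 7.16 and 7.42 in Mo and 9.37, 10.10, 8.80 and 10.20 in PMN, and PMN replicates 2 and 4 were higher than 1 and 3. The summed intensity of the list was 7484, 12320, 6267 and 10523 in PMN replicates 1 to 4 and from 5538 to 6097 in Mo. Without PMN replicates 2 and 4, an alternative chosen after seeing the data, the difference was -1.61 for Vcam1 and -1.66 for Ccr3, so both lost the call, and 354 of the 360 calls remained. Adgre1, which encodes F4/80, lay on the Mo side at 1.85. Of 17 eosinophil, basophil and mast cell genes, Hdc and Ccr3 were called higher in PMN. The granule genes Epx (-0.08), Prg2 (-0.17), Mcpt8 (-0.20) and Cpa3 (-0.08) had differences near 0. Their levels were not set against background here, so these differences do not show that the subsets expressed them equally. Of 16 dendritic cell genes Ly75 was called, 4.45-fold higher in PMN, but 0 on the deposited values. In the T and NK cell (21 genes), platelet (7), erythroid (11) and stroma and endothelium (15) lists, 0 were called. As for B cells, all stroma and endothelium differences were negative, from -0.98 to -0.06. The summed intensity of that list was 2442 to 2630 in PMN and 1676 to 1855 in Mo. The platelet and dendritic cell sums of PMN also lay above those of all Mo arrays. The T and NK cell sums and the erythroid sums overlapped.

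**Figure D4:**
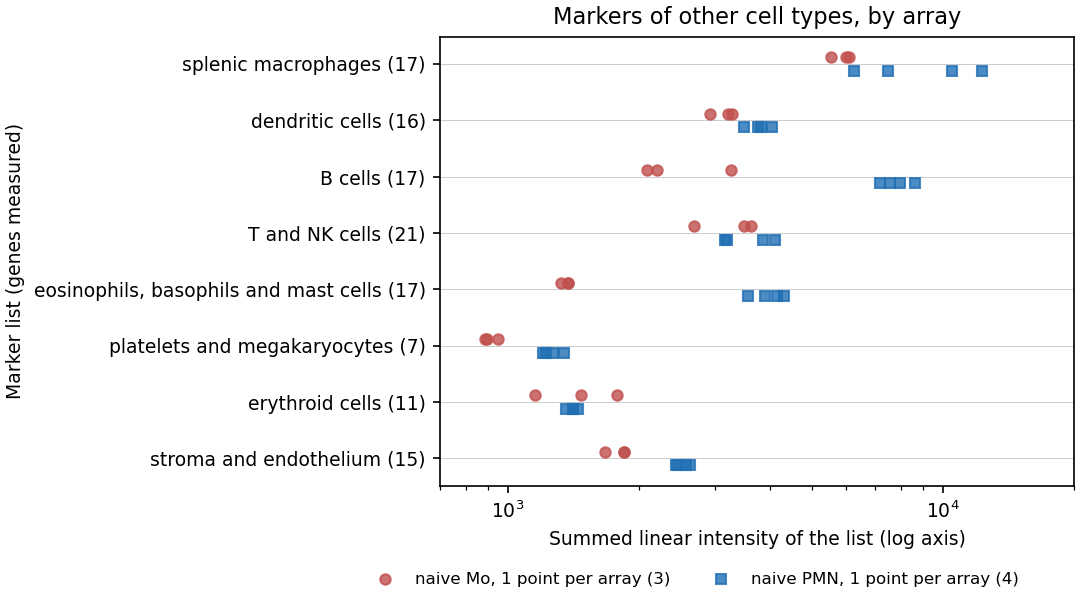
Summed linear intensity (horizontal axis, log scale) of the marker genes of 8 other cell types (vertical axis, number of genes measured in brackets) in each of the 3 naive Mo and 4 naive PMN arrays. The B cell sums of the PMN arrays (7169 to 8637) lie above those of all Mo arrays (2089 to 3267), and the splenic macrophage sums of PMN spread from 6267 to 12320.

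The naive differences were then followed in tumour-bearing mice, in arrays that share no sample with the naive ones but share the normalization and the fit. At 3 weeks 510 genes (2.56%) were called between the subsets, 403 higher in Mo (2.02%) and 107 in PMN (0.537%). The split was 1007 and 52 on the deposited values and 836 and 62 with centred arrays. Of the 230 genes called higher in naive Mo, 218 were called the same way, which is 54.1% of the 403, and of the 130 called higher in naive PMN, 97 were, which is 90.7% of the 107. All 360, which were picked for large naive differences, kept their sign. Over all genes 47.4% of the differences at 3 weeks were positive and 52.6% negative. At 6 weeks 372 genes (1.87%) were called, 172 higher in Mo (0.863%) and 200 in PMN (1.0%). This split turned, to 502 and 122 on the deposited values and to 311 and 181 with centred arrays. Of the naive calls, 99 of 230 were called the same way (57.6% of the 172) and 87 of 130 (43.5% of the 200). Casp1 (-0.07) and Oaz2 (-0.18) were the 2 with the opposite sign, while over all genes 52.7% of the differences were positive and 47.3% negative. At both times 165 of the 360 were called the same way. Whether the subset differences changed with time was not tested, so the following values are set side by side.

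The receptors, matrix proteins and Ms4a genes that led the Mo side kept large differences: Fn1 stood at 5.92, 6.21 and 5.64 in naive mice, at 3 weeks and at 6 weeks, Ccr2 at 5.64, 5.78 and 4.90, and Ms4a4a at 5.03, 4.98 and 4.27. Ifi205 stood at 4.74, 4.71 and 2.26, Ifi209 at 3.77, 4.11 and 3.52, and Ifi44l at 4.66, 4.57 and 2.32. Ifi44l read 9.97, 8.45 and 7.66 in the Mo arrays at 6 weeks and 6.29 and 6.46 in the PMN arrays, so its Mo values had the wider spread. Serpinb10 stood at 3.89, 4.44 and 0.06, and its PMN arrays read 10.15 and 9.85 at 6 weeks against 6.22 to 7.17 in naive mice. Wfdc17 stood at 2.69, 3.08 and 0.23.

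On the PMN side Cxcr2 stood at -7.41, -7.15 and -6.37, and Mmp9 at -5.07, -4.76 and -5.58. Ptgs2 stood at -6.27, -5.76 and -1.72. It read 7.41 and 7.33 in the PMN arrays at 6 weeks and 5.80, 5.65 and 5.51 in the Mo arrays, so the PMN level was lower than in naive mice. Egr1 (-3.60, -3.43 and -1.19) and Cxcl2 (-4.70, -5.21 and -1.71) also stood nearest to 0 at 6 weeks. S100a8 stood at -5.49, -4.36 and -2.23, and here it was the Mo level that was higher: its Mo arrays read 10.58, 11.73 and 11.11 at 6 weeks against 6.65 to 7.72 in naive mice, while PMN read 13.34 and 13.39. Lcn2 and Ngp stood at -2.05 and -2.19 at 6 weeks. Stfa2 (-2.76, -2.46 and -5.56) and Retnlg (-5.05, -5.37 and -6.48) were farther apart at 6 weeks. Mpo lay at background levels in both subsets of naive mice. At 6 weeks Mpo read 9.80, 10.61 and 11.17 in Mo and 8.01 and 7.57 in PMN, a called difference of 2.74. The B cell differences were smaller at 6 weeks, with Pax5 at -2.65, -2.72 and -1.18 and Ms4a1 at -2.48, -2.64 and -1.39.

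**Figure D5:**
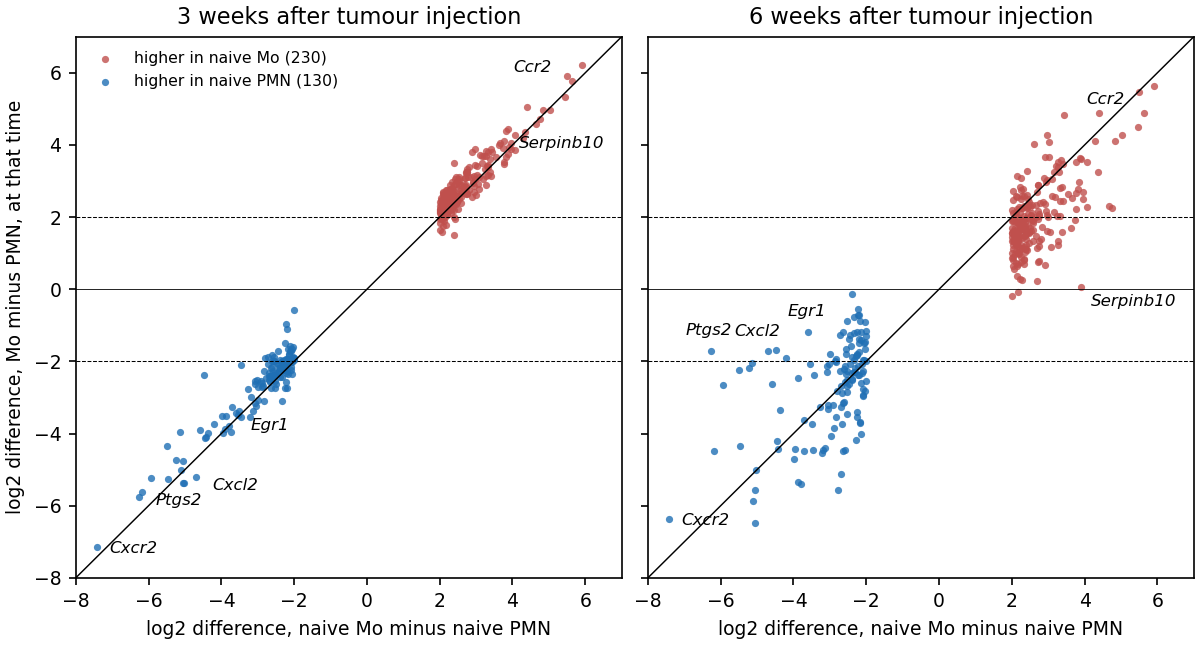
Log2 difference of Mo minus PMN in naive mice (horizontal axis) against that at 3 weeks (left) and 6 weeks (right) after tumour injection (vertical axis) for the 360 genes called in naive mice; the diagonal marks equal differences and dashed lines 4-fold. At 3 weeks all 360 points keep their side of 0, and at 6 weeks Ptgs2 and Serpinb10 lie far from the diagonal.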

How the data were processed

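RNA of sorted CD11b+ subsets was hybridised to 1 array per sample. The deposited intensities were made by the authors with RMA on a linear scale, per the submitters' processing notes. Its version, settings and build are not given in the sources used here. The upper quartiles of the 2 subsets did not overlap, so the intensities were taken to log2 and quantile normalized over all 17 arrays. Of 35557 features, 21789 carried 1 gene symbol in the platform annotation, 1621 several and 12147 none. Only the first were used, and for the 999 genes with several features the one with the highest mean was kept.

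The means of all 6 groups were fitted in R 4.3.3 by limma 3.58.1 with its eBayes step, and two-sided p-values of each contrast were adjusted by Benjamini-Hochberg over 19938 genes. The 42 gene lists held 869 genes, of which 80 were not measured. Named with full values were the 12 largest calls each way (without predicted, small RNA, olfactory and antigen receptor genes), up to 2 calls each way per list, and a fixed set of lineage genes. Other list members given by their difference alone were chosen after their values were seen. The members and lists were chosen with earlier results of these data known. The code was tested on simulated data. The number of arrays limits the precision.

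Alternatives changed the scaling, the arrays in the fit, the treatment of dim genes, the feature per gene, the test, the threshold, the replicate block and the replicates. Leaving out naive PMN replicates 2 and 4 together was added after seeing the data. No pairing by replicate number was seen: same-numbered naive arrays deviated from their group means with correlations of -0.04, -0.10 and -0.11. Arrays with different numbers gave -0.19 to 0.25. With 3 and 4 arrays these values cannot exclude a pairing.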

Additional observations from a re-analysis of the deposited data

Results flagged for a closer look

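In 7 of the 97 named genes the highest naive PMN array stood apart from the other 3 by the Dixon criterion for 4 samples. In all 7 this array was PMN replicate 2. It read 6.48 in Ccr2, 11.59 in Ly6g, 7.60 in Klf4, 10.43 in Ctss, 7.17 in Serpinb10, 8.32 in Anxa5 and 9.92 in G0s2. In Ccr2 the other 3 lay between 6.17 and 6.22, and in Ctss between 9.59 and 9.65. The lowest naive PMN array stood apart in Kif23, at 9.79, and in Cd274, at 8.21, and in both it was PMN replicate 4. Chance alone marks about 1 in 20 groups, and 9 of 97 were marked here, but genes of 1 array are not independent groups.

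Cybb, the catalytic subunit of the NADPH oxidase, was higher in every Mo array in naive mice (0.93) and lower in every Mo array at 6 weeks (-0.85). The difference between the times was not tested.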

How the results depend on the processing

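The naive count of 360 genes was 546 on the deposited values without joint normalization, of which 285 were among the 360, and 2167 at a 2-fold threshold. With arrays centred on their medians it was 378. With quantile normalization over the 7 arrays alone it was 289. It ranged from 331 to 384 when 1 replicate was left out. In 18 settings, 206 of the 360 were called in each. They include the omission of PMN replicates 2 and 4 and leave out the 2-fold threshold and the filter that removes genes with a mean under 7. Of the 206, 156 were higher in Mo and 50 in PMN. The 3-week count of 510 was 1059 on the deposited values, 898 with centred arrays and 3327 at 2-fold, and ranged from 440 to 645 without 1 replicate. The 6-week count of 372 was 624 on the deposited values and 2160 at 2-fold, and ranged from 342 to 379 without 1 replicate. With the replicate number as a block the counts were 354, 489 and 360, although no pairing by number was seen. The differences that turned sign belonged to genes that were not called. On the deposited values they were Itgam (0.23), Cebpb (0.49), Spi1 (0.71), Nos2 (0.19) and Cd14 (0.47), and with centred arrays Cebpb (0.23), Spi1 (0.46) and Cd14 (0.21). Cd14 also turned without Mo replicate 3 (0.12) and without PMN replicate 2 (0.0027), and ran from -0.23 to 0.12 over the fits that left out 1 replicate. The cause of these changes was not tested, and levels near those of the olfactory receptor genes bound no fold. Among named genes, Klf4, Cebpd, Cr2, C5ar1, Cd9, Vcam1, Erap1, Cysltr1, Stfa2, Wfdc21, Scarb1, G0s2, Ndufb5, Psma2, Kif23, Idi1, Ly75, Pax5 and Ccr3 fell under a call in at least 1 setting.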

Other observations

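Jchain and Igkv10-96, genes of antibody production, were chosen after their values were seen, and other antibody genes were not counted. Jchain, which joins the subunits of secreted IgM and IgA, read 9.51, 10.43 and 10.39 in naive Mo and 6.65, 7.54, 7.78 and 6.93 in naive PMN, a called difference of 2.89. Igkv10-96, a variable segment of the kappa light chain, read 8.42, 9.08 and 8.39 in naive Mo and 6.31, 6.26, 6.04 and 6.22 in naive PMN, a called difference of 2.43. Jchain remained called at 3 weeks (2.56) and at 6 weeks (3.09), and Igkv10-96 at 6 weeks (2.60).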
